A study of Mus musculus with 6 samples.

Results

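This account concerns regulatory T cells (Tregs) that lack the adenosine 2A receptor (A2AR) and received no agonist, compared with wild-type Tregs handled the same way. It rests on 4 of the 6 expression arrays of the study, 2 labelled as A2AR KO Tregs with vehicle (KO vehicle) and 2 labelled as WT Tregs with vehicle (WT vehicle). All cells came from spleen and lymph nodes of FoxP3GFP reporter mice on the C57Bl/6 background, aged 8 to 11 weeks, and were sorted by FACS as CD4+CD25+FoxP3+. The genotypes were A2AR-/-FoxP3GFP for KO vehicle and A2AR+/+FoxP3GFP for WT vehicle, so both groups carried the reporter. Both were kept for 18 h in culture medium with DMSO, the solvent of the agonist, and the labels call the vehicle cells unactivated. The other 2 arrays hold wild-type cells given 10 nM of ATL1222, an agonist selective for A2AR, for the same 18 h (WT ATL1222). They entered the statistical fit, and their values are given for context. The labels call the replicates biological and name no animals. The p-values thus measure the spread between these samples, which the fit estimates largely from all genes together.

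A2AR signals through Gs to adenylyl cyclase. Extracellular adenosine, formed from ATP by the ectoenzymes CD39 and CD73 on the Treg surface, activates the receptor and raises cAMP. cAMP activates protein kinase A, which phosphorylates CREB-family transcription factors bound to cAMP response elements, and restrains T cell receptor signalling. The comparison addresses which transcripts depend on the receptor when no agonist is added.

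Each array held 45101 probe sets, each a group of probes that reports 1 transcript region as a signal on a linear scale. The arrays had been scaled to the same trimmed mean, with median signals from 74.7 to 98.2. The 3' to 5' signal ratio of Gapdh, a measure of RNA integrity, was 1.36 and 1.45 in WT vehicle and 1.39 and 1.29 in KO vehicle. Across the genes tested, the 4 pairs of a KO with a WT vehicle array correlated at Pearson r from 0.958 to 0.968. Within WT vehicle r was 0.957 and within KO vehicle 0.964, so arrays of 1 group were no more alike than arrays of different genotype. Signals are fluorescence intensities, so a level was compared only between arrays and never between genes.

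Transcripts tied to the sorted identity were read on each array. No array of other cells was at hand, so these signals do not verify the sort. Ikzf2, which encodes the Treg transcription factor Helios, had signals of 7449 and 6810 in WT vehicle and 7139 and 7083 in KO vehicle. Nrp1, a surface receptor of thymus-derived Tregs, lay between 6667 and 8299 on these arrays. Il2ra, the CD25 gene, lay between 468 and 613, and Cd3e, a T cell receptor subunit gene, between 1907 and 3068. Foxp3 itself, read by 1 probe set, lay at 7.18 and 26.7 in WT vehicle and 53.5 and 25.5 in KO vehicle. These Foxp3 values are below the limit of 71.2 set here for testing a gene, so this array gives no usable reading of Foxp3. Cd4 was dim and uneven, at 343 and 136 against 305 and 435.

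A small set of genes was lower in receptor-deficient cells, and none was higher by the test. Of 10916 genes tested, 9 were lower in KO vehicle (0.0824% of genes tested) and 0 were higher (0%). The 9 were Crem, Pdcd1, Rgs2, Odc1, Tent5a, Tnfaip3, Irak1, Cebpb and C730049O14Rik, with log2 fold changes from -1.64 to -0.63. Differences were tested with limma, a linear model that borrows information on the spread across genes, on log2(signal + 16), blocked on replicate number. The threshold was a Benjamini-Hochberg adjusted p of 0.05. An unadjusted p under 0.05 was reached by 409 genes with lower and 351 with higher means. The median log2 fold change over all genes tested was 0.004, and the median standard error 0.205, which limits the differences that could be detected. Over all genes tested log2 fold changes ran from -4.11 to 2.29, so a larger fall than that of any of the 9 did not pass. Negative log2 fold changes made up 49.2% of all genes tested, the share to set beside the sign counts of the lists below. A lower signal from bulk cells can reflect fewer cells carrying a transcript or less of it per cell, which cannot be told apart here. Without the block 3 genes passed (Crem, Pdcd1 and Rgs2), with no trend of the variance on the mean signal 0 passed, and with a gene's probe sets averaged 2 passed. Leaving out WT vehicle replicate 1 gave 5 genes and leaving out KO vehicle replicate 2 gave 26.

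In all 9 genes, both KO vehicle signals lay below both WT vehicle signals. Among all genes tested, the groups failed to overlap in that direction in 13.7% and in the opposite direction in 15.8%, so separation alone is common with 2 arrays a group. A stricter description, used below for gene lists, asks for a log2 difference of at least 0.5 within each replicate number, with 1 sign. It is called the within-replicate description. It was met by 151 genes with lower signals (1.38% of genes tested) and 170 with higher signals (1.56%). All 9 genes met it, and this follows in part from the size of difference that the test needs.

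**Figure D1:**
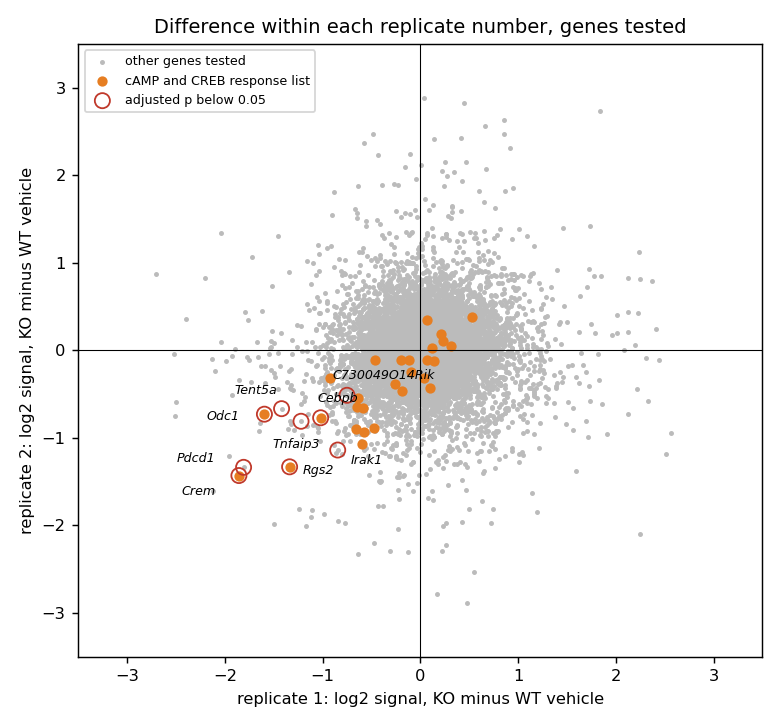
Each point is 1 gene tested, placed by its log2 signal difference, KO vehicle minus WT vehicle, within replicate 1 (x axis) and within replicate 2 (y axis). The 9 genes with adjusted p below 0.05 (red circles) and members of the cAMP and CREB response list (orange) are marked, and 3 genes lie outside the axes. The 9 circled genes sit in the lower left, with differences from -1.86 to -0.75 in replicate 1 and from -1.43 to -0.51 in replicate 2.

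Crem and Rgs2, classical targets of cAMP signalling, were among the genes with the smallest p. Crem encodes a cAMP-responsive transcription factor whose short form, ICER, represses the same elements that CREB activates. Its signals were 2093 and 1273 in WT vehicle and 566 and 463 in KO vehicle. Both knockout arrays were thus below the lower wild-type array, a 3.12-fold lower level (log2 fold change -1.64 ± 0.13 SE, n = 2 a group, limma adjusted p = 9.76e-05). A second tested probe set of Crem gave 562 and 452 against 242 and 216, at log2 -1.09 ± 0.15 (limma adjusted p = 0.0202 with every probe set tested separately). The other 2 Crem probe sets were below the limit for testing.

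Rgs2 encodes a GTPase-activating protein that shortens signalling through heterotrimeric G proteins. Its signals were 4051 and 3255 in WT vehicle against 1592 and 1285 in KO vehicle, 2.52-fold lower (log2 -1.33 ± 0.11 SE, limma adjusted p = 9.76e-05). The difference was nearly the same in each replicate, at -1.34 and -1.33. Of its 4 probe sets 3 were tested, and each of them was lower in the knockout when tested separately, at log2 -1.33, -1.14 and -1.07.

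Promoters of the genes that fell were read for the cAMP response element, the site that CREB-family factors bind. The full element searched was TGACGTCA and its core was TGACG, on both strands, so that every full element also counts as a core match. The window ran from 250 bases before to 50 after an annotated start of the RefSeq gene models on GRCm38.p6. Windows were found for 7 of the 9 genes, and 0 of these 7 held the full element, against 3.63% of the 8843 tested genes with a window. The core was present in 5 of the 7, in Rgs2, Tnfaip3, Irak1, Cebpb and Odc1, and in 35.9% of tested genes. It occurred in 20.8% of all 32851 windows of this length. A match describes these letters and not bound protein, and elements outside the window were not searched. The windows of 4 of these genes are printed on the gene's own strand, 5′ to 3′, with core matches in capitals, because these genes had the smallest p among those with a window. The windows are chr1:94052504-94052803 for Pdcd1, chr1:144004100-144004399 for Rgs2, chr10:19015361-19015660 for Tnfaip3 and chrX:74023872-74024171 for Irak1, all on the minus strand.
Pdcd1: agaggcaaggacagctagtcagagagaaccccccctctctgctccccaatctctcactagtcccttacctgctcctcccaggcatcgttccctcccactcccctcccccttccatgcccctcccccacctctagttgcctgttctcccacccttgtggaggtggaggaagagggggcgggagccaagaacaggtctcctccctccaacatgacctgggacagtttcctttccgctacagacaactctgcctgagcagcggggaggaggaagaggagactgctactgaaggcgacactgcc
Rgs2: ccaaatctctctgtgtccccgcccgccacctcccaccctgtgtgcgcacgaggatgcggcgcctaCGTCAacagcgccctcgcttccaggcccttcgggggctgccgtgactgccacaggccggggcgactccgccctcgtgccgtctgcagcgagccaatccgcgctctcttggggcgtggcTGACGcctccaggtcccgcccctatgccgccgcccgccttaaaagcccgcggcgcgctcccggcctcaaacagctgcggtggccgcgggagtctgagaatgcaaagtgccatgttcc
Tnfaip3: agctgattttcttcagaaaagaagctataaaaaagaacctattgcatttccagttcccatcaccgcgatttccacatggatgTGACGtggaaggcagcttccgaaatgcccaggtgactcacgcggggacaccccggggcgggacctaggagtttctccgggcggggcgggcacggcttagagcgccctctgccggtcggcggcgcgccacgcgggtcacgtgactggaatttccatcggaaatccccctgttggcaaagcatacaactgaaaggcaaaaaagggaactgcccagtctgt
Irak1: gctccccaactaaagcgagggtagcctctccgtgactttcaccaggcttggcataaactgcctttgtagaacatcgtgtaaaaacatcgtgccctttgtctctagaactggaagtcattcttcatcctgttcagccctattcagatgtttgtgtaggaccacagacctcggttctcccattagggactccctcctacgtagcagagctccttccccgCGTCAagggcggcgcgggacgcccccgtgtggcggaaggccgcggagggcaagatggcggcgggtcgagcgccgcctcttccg

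In Rgs2 the core matches began 185 and 67 bases before the start, in Tnfaip3 168 bases before it and in Irak1 33 bases before it. The Cebpb window held 3 core matches and that of Odc1 1. The window of Pdcd1 and both windows of Tent5a held none, nor did the window of a second, downstream start of Tnfaip3.

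Pdcd1 was the inhibitory receptor gene that fell. It encodes PD-1, which recruits phosphatases that dampen T cell receptor and CD28 signals. Its signals were 3777 and 2301 in WT vehicle and 1066 and 902 in KO vehicle, so even the higher knockout array was well under the lower wild-type array. The level was 2.97-fold lower (log2 -1.57 ± 0.13 SE, limma adjusted p = 9.76e-05), with -1.81 in replicate 1 and -1.34 in replicate 2. The gene has 1 probe set on the array.

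The other co-inhibitory and co-stimulatory receptors did not pass. Of 15 members tested 1 was lower and 0 were higher, 11 had negative log2 fold changes, and the median was -0.19. The median was -0.25 within replicate 1 and 0.001 within replicate 2. Tnfrsf18, which encodes GITR and had the smallest p after Pdcd1, showed signals of 5124 and 3923 against 3623 and 2921 (log2 -0.46 ± 0.09 SE, limma adjusted p = 0.146). Tnfrsf4, which encodes OX40, had 2530 and 1964 against 2120 and 1534 (log2 -0.30 ± 0.10), so its groups overlapped. Ctla4, the inhibitory receptor that takes CD80 and CD86 from antigen-presenting cells, had 5125 and 3703 against 3432 and 3759 (log2 -0.28 ± 0.12, limma adjusted p = 0.692). Its 95% interval ran from -0.54 to -0.01, but the groups overlapped, with -0.58 in replicate 1 and 0.02 in replicate 2. The co-stimulatory receptor gene Icos lay at -0.19 ± 0.10, and Btla, another inhibitory receptor gene, at 0.40 ± 0.13 with both knockout arrays above both wild-type arrays.

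Tnfrsf9, the 4-1BB gene, depended on the probe set. Its brightest probe set lay at log2 -0.43 ± 0.21 and did not pass (limma adjusted p = 0.707). A dimmer one read 299 and 267 in WT vehicle and 78.7 and 96.6 in KO vehicle, at log2 -1.53 ± 0.23, and passed when every probe set was tested separately (limma adjusted p = 0.0433). This was the only gene added by that fit, in which 12 of 18761 probe sets (0.064%) were lower and 0 were higher. They belonged to 8 genes, of which 7 were among the 9 above.

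Tnfaip3, a feedback inhibitor of NF-kB, was lower in the knockout. It encodes A20, a ubiquitin-editing enzyme induced by NF-kB that shuts the pathway off. Signals were 3540 and 2131 in WT vehicle and 1509 and 1209 in KO vehicle, 2.02-fold lower (log2 -1.02 ± 0.11 SE, limma adjusted p = 0.00209). The separation was larger within replicate 1, at -1.22, than within replicate 2, at -0.81. A second, dim probe set read 63.6 and 69.4 against 57.7 and 77.6 and showed no such difference (log2 0.01 ± 0.35).

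The rest of the NF-kB list did not pass, and most of its members had lower means in the knockout. Of 19 members tested Tnfaip3 was the 1 that passed, and 17 had negative log2 fold changes with a median of -0.13. Across all genes tested 49.2% of log2 fold changes were negative. The inhibitors Nfkbie and Nfkbib lay at -0.35 ± 0.14 and -0.43 ± 0.18, and the adaptor gene Traf1 at -0.32 ± 0.11. Nfkbia, which encodes the main inhibitor of the pathway and is itself induced by it, lay at -0.10 ± 0.11. The subunit genes Rela and Nfkb2 lay at -0.02 ± 0.10 and -0.07 ± 0.16, and Rel at -0.46 ± 0.27, with -0.14 in replicate 1 and -0.79 in replicate 2.

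Irak1 passed by 1 of its 4 probe sets. It encodes a kinase of Toll-like and interleukin-1 receptor signalling. The brightest probe set had 1695 and 1146 in WT vehicle against 936 and 512 in KO vehicle (log2 -0.99 ± 0.13 SE, limma adjusted p = 0.00612). The other 3 lay at -0.07 ± 0.13, 0.25 ± 0.13 and 0.17 ± 0.17. Its probe sets thus disagreed, and the mean of its probe sets gave a log2 value of -0.16. The name of the lower probe set ends in x_at, a suffix that marks probes which can bind transcripts of other genes. Without WT vehicle replicate 2 the gene no longer passed.

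Odc1 was the metabolic gene that fell. It encodes ornithine decarboxylase, the enzyme that commits ornithine to polyamine synthesis and a known cAMP-inducible gene. Signals were 6810 and 3757 in WT vehicle and 2242 and 2261 in KO vehicle, 2.24-fold lower (log2 -1.16 ± 0.16 SE, limma adjusted p = 0.0120). The name of this probe set also ends in x_at, as do those used for Adk, Tsc22d1, Ssr3, Aldoa and Prkaca. The knockout arrays were alike while the wild-type arrays differed, so the difference was -1.60 in replicate 1 and -0.73 in replicate 2. Without WT vehicle replicate 1 it no longer passed. A second probe set gave -1.23 ± 0.13 and passed when tested separately (limma adjusted p = 0.00258), and another, at 385 and 414 against 253 and 36.3, did not.

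Other polyamine genes did not follow Odc1. Of 10 members tested 1 was lower, 5 had negative and 5 positive values, and the median was -0.03. Oaz1, which encodes the antizyme that directs ornithine decarboxylase to the proteasome, lay at -0.12 ± 0.10, the spermidine synthase gene Srm at 0.09 ± 0.25 and the polyamine-degrading Sat1 at 0.00 ± 0.10.

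Cebpb, Tent5a and C730049O14Rik completed the set. Cebpb encodes a bZIP transcription factor that is induced by cAMP. Its signals were 1448 and 963 against 706 and 558, 1.86-fold lower (log2 -0.90 ± 0.12 SE, limma adjusted p = 0.0112), and the call was lost when replicate 1 of either group was left out. A dimmer probe set lay at -0.58 ± 0.21. Tent5a, which encodes a non-canonical poly(A) polymerase, had 1160 and 697 against 423 and 433 (log2 -1.04 ± 0.17, limma adjusted p = 0.0401). It passed in 6 of the 17 alternative analyses. C730049O14Rik, an unnamed locus in the platform's annotation, had 4352 and 3556 against 2580 and 2487 (log2 -0.63 ± 0.10, limma adjusted p = 0.0331) and also passed in 6 of 17.

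**Figure D2:**
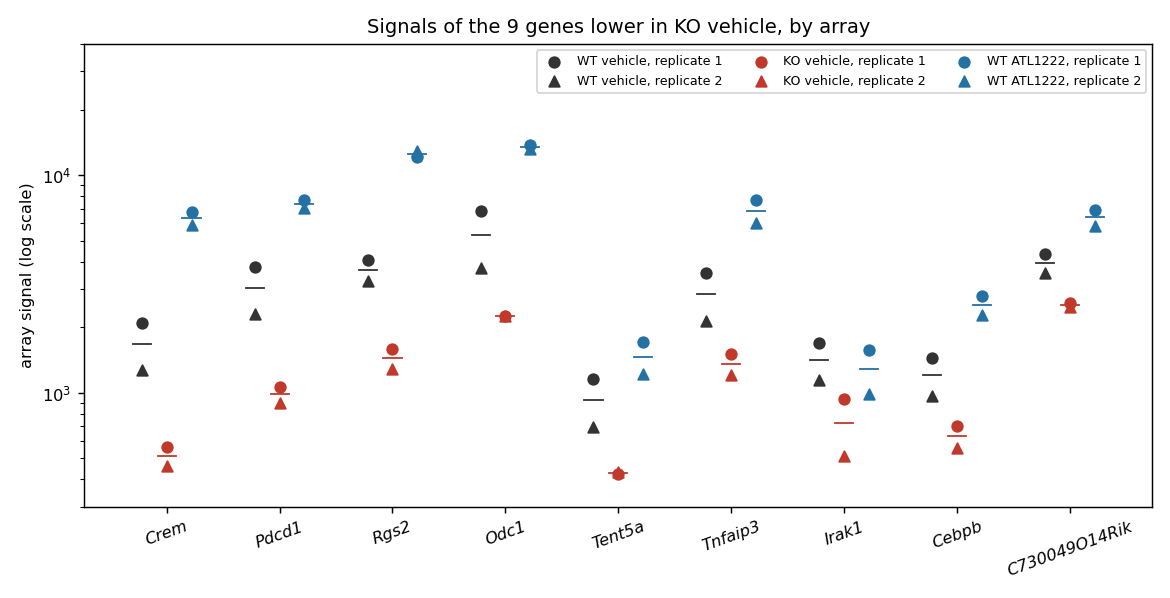
Array signals (log scale) of the 9 genes lower in KO vehicle, for WT vehicle (black), KO vehicle (red) and WT ATL1222 (blue), with circles for replicate 1, triangles for replicate 2 and a line at the group mean. Both KO vehicle arrays lie below both WT vehicle arrays for every gene, for example at 566 and 463 against 2093 and 1273 for Crem.

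**Figure D3:**
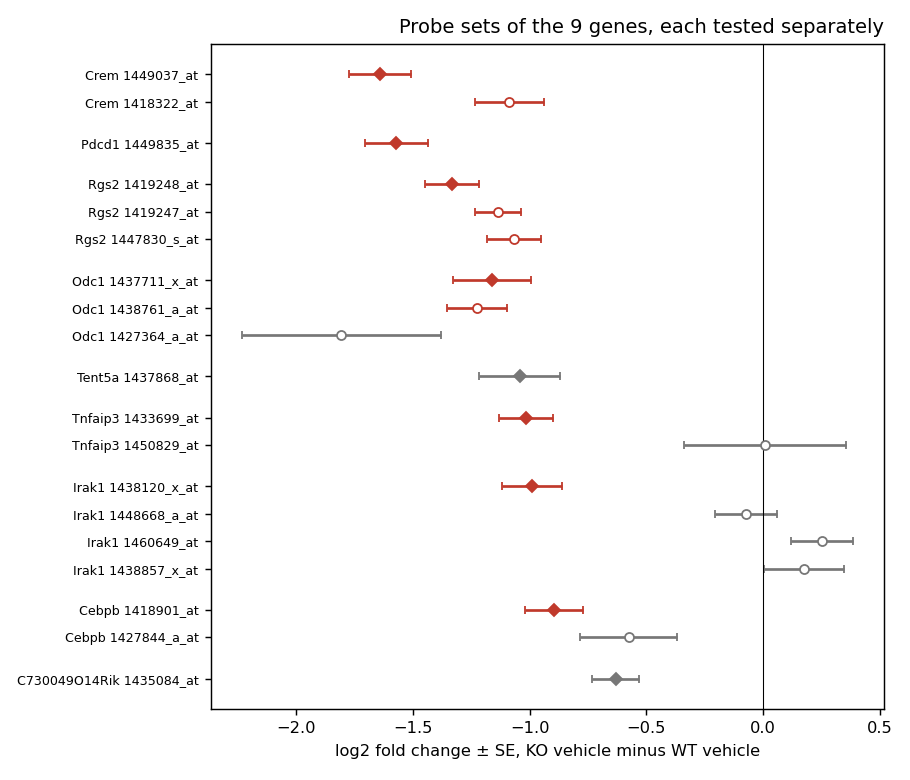
Log2 fold change ± SE, KO vehicle minus WT vehicle, of each tested probe set of these 9 genes, with the brightest as a filled diamond, the others as open circles and red for an adjusted p below 0.05 when each probe set is tested separately. The 3 probe sets of Rgs2 lie from -1.33 to -1.07, whereas those of Irak1 lie from -0.99 to 0.25.

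The same genes had the following values in wild-type cells given ATL1222, a comparison that shares the WT vehicle arrays, so the signs are not independent evidence. In that comparison 73 genes were higher (0.669% of genes tested) and 5 lower (0.0458%). Crem read 6797 and 5925 with the agonist, Rgs2 12110 and 12890, and Pdcd1 7641 and 7092. All of these lay above both WT vehicle arrays, with log2 fold changes of 1.95 ± 0.13, 1.78 ± 0.11 and 1.32 ± 0.13. Odc1, Tnfaip3 and Cebpb had log2 fold changes of 1.41, 1.30 and 1.09 in that comparison, C730049O14Rik 0.69 and Tent5a 0.67. Irak1 lay at -0.15 ± 0.13, with 1580 and 992 against 1695 and 1146 in WT vehicle.

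The cAMP and CREB response list held 4 of the 9 genes that passed and 10 of the 151 that met the within-replicate description downwards. Of 28 members tested, 4 fell (Crem, Rgs2, Odc1 and Cebpb) and 0 rose. A further 6 met the within-replicate description of a log2 difference of 0.5, which makes 10 of 28, where 1.38% of all genes tested did. The list's median log2 fold change was -0.30, with 21 negative and 7 positive values, against a median of 0.004 over all genes. It lay between -0.39 and -0.19 over the 17 alternatives. The list was assembled with earlier results of these arrays known, so its direction is a description.

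The 6 further members did not pass the test singly. Gadd45b, a stress-response gene that binds MAP kinase kinases, had 926 and 967 in WT vehicle and 579 and 511 in KO vehicle (log2 -0.78 ± 0.14 SE, limma adjusted p = 0.0736). The AP-1 gene Fosl2 had 657 and 518 against 430 and 239 (log2 -0.83 ± 0.17, limma adjusted p = 0.166). The circadian repressor gene Bhlhe40 lay at -0.65 ± 0.15, the insulin receptor substrate gene Irs2 at -0.75 ± 0.19, the clock gene Per1 at -0.59 ± 0.19 and Fos at -0.62 ± 0.24. In each of the 6, both knockout arrays lay below both wild-type arrays. This follows in part from the description by which they were chosen, and 13.7% of all genes tested separated in this direction.

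Dusp1 and Id2 also had both knockout arrays below both wild-type arrays, but missed the within-replicate description in 1 replicate. Dusp1, which encodes a phosphatase of MAP kinases, had 2110 and 1677 against 1516 and 901 (log2 -0.68 ± 0.12, limma adjusted p = 0.0975), with -0.47 in replicate 1 and -0.88 in replicate 2. Id2, an inhibitor of E proteins, lay at -0.62 ± 0.17, with -0.92 and -0.32. The orphan nuclear receptor genes Nr4a1, Nr4a2 and Nr4a3 lay at -0.32 ± 0.14, -0.16 ± 0.19 and -0.14 ± 0.19. Gadd45a lay at -0.17 ± 0.17, Junb at -0.29 ± 0.17 and Egr1 at 0.01 ± 0.18. The phosphodiesterase genes Pde4d and Pde4b, which encode enzymes that degrade cAMP, lay at -0.32 ± 0.12 and 0.20 ± 0.11.

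Set beside the agonist values, several of these genes showed unequal sizes in the 2 comparisons. Nr4a3 had a log2 fold change of 1.22 with ATL1222 and -0.14 in the knockout, Gadd45a 1.16 and -0.17, Junb 1.01 and -0.29, and Ier2 0.75 and -0.11. Gadd45b had 0.00 with ATL1222 and -0.78 in the knockout, and Per1 0.00 and -0.59. Whether these sizes differ between the comparisons was not tested.

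**Figure D4:**
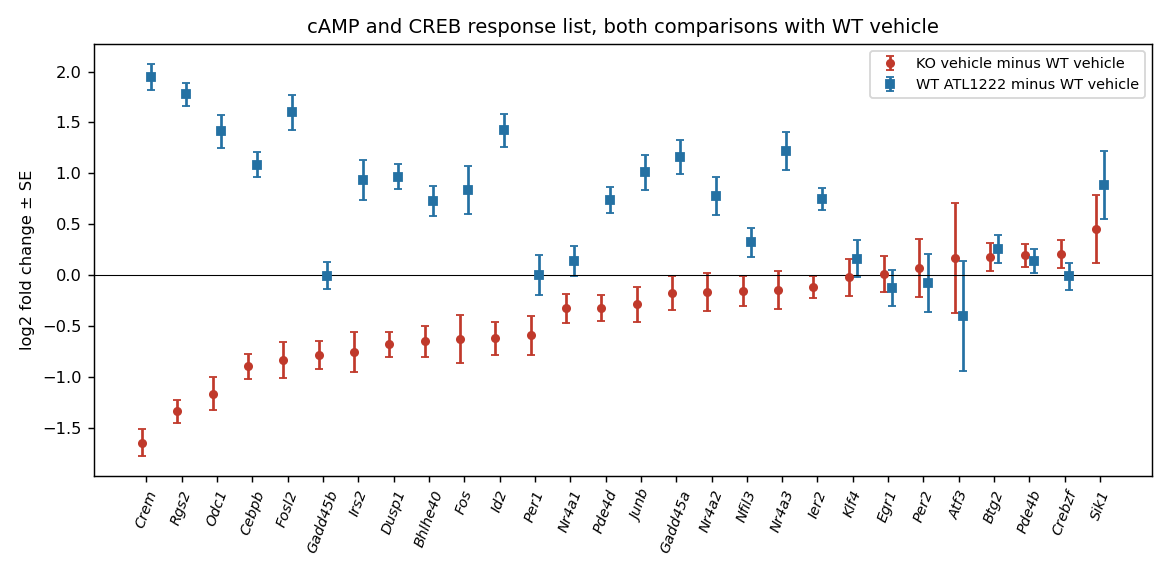
Log2 fold change ± SE of the 28 tested members of the cAMP and CREB response list, in order of the KO vehicle minus WT vehicle value (red circles), with the WT ATL1222 minus WT vehicle value beside it (blue squares). Both comparisons share the WT vehicle arrays. Crem and Rgs2 are lowest in the knockout at -1.64 and -1.33, and Gadd45b lies at -0.78 there and at 0.00 with ATL1222.

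Transcripts of the machinery that makes and reads cAMP did not pass, which does not show that their levels were equal. Of 26 members tested 0 passed in either direction and 0 met the within-replicate description, with a median of -0.03. The Gs alpha gene Gnas lay at -0.04 ± 0.09, Creb1 at -0.04 ± 0.11 and the coactivator gene Crebbp at 0.01 ± 0.10. Adcy6, an adenylyl cyclase gene, had the smallest p, with 376 and 441 against 562 and 627 (log2 0.53 ± 0.17, limma adjusted p = 0.517). The catalytic subunit genes of protein kinase A, Prkaca and Prkacb, lay at 0.25 ± 0.15 and -0.24 ± 0.11.

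Among regulators of G protein signalling Rgs2 was the 1 of 11 members that passed. Its relative Rgs1 had 1216 and 751 against 788 and 660 (log2 -0.40 ± 0.15, limma adjusted p = 0.574), with overlapping groups. Rgs3, Rgs10, Rgs14, Rgs16 and Rgs19 lay between -0.21 and 0.29, and the median of the list was -0.03.

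Genes that make, take up or break down adenosine did not pass. Of 15 members tested 8 had negative and 7 positive values. Nt5e, which encodes the CD73 ectoenzyme, had 3006 and 3138 against 2582 and 2852 (log2 -0.18 ± 0.11, 95% interval -0.41 to 0.05). Entpd1, which encodes CD39, had 267 and 187 against 176 and 161 (log2 -0.38 ± 0.27). Adk, which encodes the adenosine kinase that removes intracellular adenosine, had 7196 and 6299 against 5292 and 5170 (log2 -0.36 ± 0.09, limma adjusted p = 0.303).

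The AP-1, Egr and early response list had 19 negative values among 24, with a median of -0.18, and 0 members passed. Fosl2, Fos and Dusp6 met the within-replicate description downwards (3 of 24), where 1.38% of all genes tested did. Of the 24, 9 are in the cAMP list as well, among them Dusp1, Junb and Egr1. Dusp10, a phosphatase gene for stress kinases, had 731 and 653 against 522 and 463 (log2 -0.48 ± 0.13, limma adjusted p = 0.361). Klf2, a quiescence factor gene, lay the opposite way, at 4272 and 3832 against 5702 and 5121 (log2 0.42 ± 0.11, limma adjusted p = 0.298). Myc lay at -0.17 ± 0.20.

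Treg identity genes did not pass singly. Of 28 tested, 21 had negative values with a median of -0.16, and 3 met the within-replicate description downwards, where 1.38% of all genes tested did. The median was -0.25 within replicate 1 and 0.016 within replicate 2, so its sign rests on replicate 1. The summed signal of the 32 listed genes on the array overlapped, at 50270 and 40150 in WT vehicle and 43060 and 38630 in KO vehicle. The 3 that met the within-replicate description were Klrg1, a receptor gene of terminally differentiated Tregs, Penk, the proenkephalin gene, and Ebi3, a subunit of the suppressive cytokine IL-35. Klrg1 had 844 and 505 in WT vehicle and 428 and 321 in KO vehicle (log2 -0.79 ± 0.16, limma adjusted p = 0.146), and Penk 606 and 389 against 368 and 206 (log2 -0.78 ± 0.16, limma adjusted p = 0.166). Ikzf2, Nrp1 and Il2ra lay at 0.00 ± 0.09, 0.06 ± 0.09 and 0.03 ± 0.17, with 95% intervals of -0.21 to 0.20, -0.14 to 0.25 and -0.34 to 0.40. Il10 was dim, at 113 and 56.6 against 22.1 and 76.2, and Gzmb, at 4.51 and 8.62 against 48.6 and 96.9, was below the limit for testing.

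T helper and effector factors had 12 negative values among 17 and a median of -0.17, and 0 passed. Bcl6, a transcriptional repressor of follicular T cells, had 1077 and 1111 against 708 and 802 (log2 -0.53 ± 0.12, limma adjusted p = 0.187). Stat3 lay at -0.34 ± 0.10, Maf at -0.53 ± 0.19 and Stat5b at -0.26 ± 0.10, with both knockout arrays below both wild-type arrays in Stat3 and Maf but not in Stat5b. Gata3 lay at -0.15 ± 0.12.

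Genes of naive CD4 T cells lay on the other side. Of 14 tested 11 had positive values with a median of 0.17, where the median over all genes was 0.004, and 0 passed. Satb1, a chromatin organizer, had 5132 and 6743 against 7098 and 8589 (log2 0.41 ± 0.09, limma adjusted p = 0.193). S1pr1, the receptor for exit from lymphoid tissue, had 769 and 1848 against 1207 and 2188 (log2 0.44 ± 0.12), higher within each replicate although the groups overlapped. Il7r lay at 0.16 ± 0.09, Lef1 at 0.20 ± 0.14 and Ccr7 at -0.08 ± 0.11. Conventional naive CD4 T cells lack CD25 and FoxP3, on which the cells were sorted, and whether any were present was not tested. The summed signal of the 14 listed genes was 35760 and 37640 in WT vehicle and 43190 and 41860 in KO vehicle, none of them at 0. It was higher in both knockout arrays, where the Treg identity, T helper and cAMP lists had negative medians, and its part in those values was not tested.

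Trafficking genes had values of both signs around a median of 0.07. Of 20 tested 0 passed, and 7 had an unadjusted limma p under 0.05, which 760 of all 10916 genes tested had. Cxcr3, a chemokine receptor gene of Th1-like Tregs, had 2313 and 1166 against 1227 and 914 (log2 -0.63 ± 0.13, limma adjusted p = 0.166). Cxcr4, the receptor for CXCL12, lay at -0.45 ± 0.13 and the activation-linked adhesion gene Cd44 at -0.45 ± 0.13. The integrin alpha 4 gene Itga4 lay at 0.39 ± 0.10, with 3523 and 3265 against 4737 and 4187.

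T cell receptor signalling genes had 13 negative and 16 positive values among 29, and 0 passed. Tnfsf8, the CD30 ligand gene, met the within-replicate description, with 394 and 431 against 226 and 258 (log2 -0.73 ± 0.17, limma adjusted p = 0.204). Nfatc2 lay at -0.60 ± 0.18 and the protein kinase C theta gene Prkcq at 0.39 ± 0.11. Of the core components, Zap70, Lat and Lcp2 lay between -0.01 and 0.09, with Zap70 at -0.42 in replicate 1 and 0.48 in replicate 2. The receptor subunit genes Cd3e and Cd3g lay at -0.25 ± 0.13 and -0.21 ± 0.10, and Cd3d and Cd247 at 0.05 ± 0.10 and -0.03 ± 0.11. In the IL-2 receptor and Janus kinase list the STAT5-induced inhibitor gene Cish lay at -0.41 ± 0.16 and Il2rb at -0.39 ± 0.16, and in the TGF-beta list the inhibitory Smad7 at 0.25 ± 0.13, and 0 of 18 and 0 of 14 members passed.

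Metabolic, stress and growth programs showed no gene past the threshold apart from Odc1. Of 26 glycolysis and hypoxia genes 17 had negative values with a median of -0.12, which was -0.14 within replicate 1 and 0.012 within replicate 2. Hif1a, which encodes the oxygen-regulated HIF-1 alpha, had 8329 and 6763 against 6277 and 5753 (log2 -0.32 ± 0.09, limma adjusted p = 0.417), and the aldolase gene Aldoa lay at -0.25 ± 0.09. Of 24 cell cycle genes 12 were negative and 12 positive, with Mki67 at 0.18 ± 0.18 and Ccnd2 at -0.39 ± 0.11. The pro-apoptotic Bcl2l11 lay at 0.32 ± 0.12 among 21 apoptosis genes, of which 14 were positive. Of 23 interferon-stimulated genes 0 passed, and Oas1a lay at -0.53 ± 0.16. Among 25 heat shock and unfolded protein response genes Pdia4, a protein disulfide isomerase gene, met the within-replicate description at -0.74 ± 0.25.

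**Figure D5:**
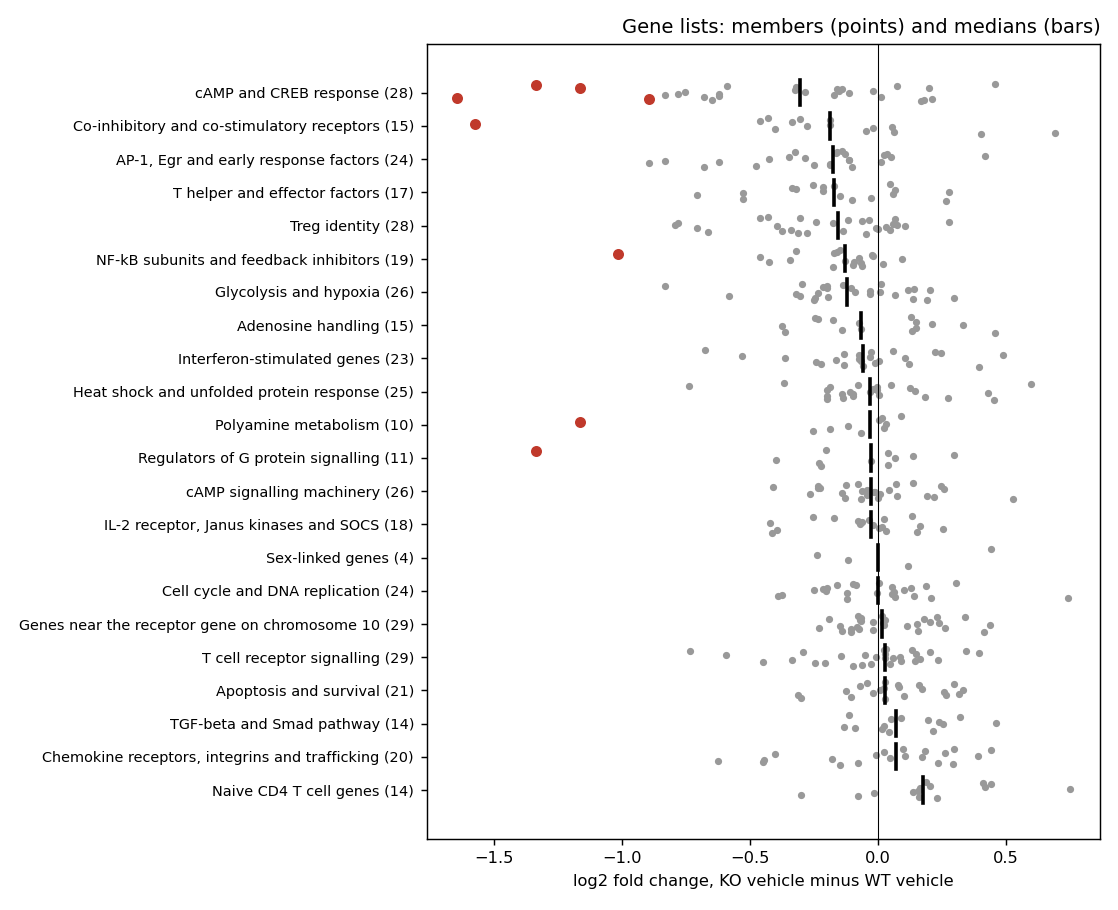
Log2 fold change, KO vehicle minus WT vehicle, of the tested members of each gene list (points, number tested in brackets), with the list median as a black bar and genes past the threshold in red. The median of the cAMP and CREB response list is -0.30 and that of the naive CD4 T cell genes 0.17.

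The genes with the smallest p among those with higher means in the knockout did not pass. Sil1, a nucleotide exchange factor of the endoplasmic reticulum, had 64.9 and 19.9 in WT vehicle and 274 and 223 in KO vehicle (log2 2.29 ± 0.43, limma adjusted p = 0.0975). Both wild-type values lay under the signal limit for testing, which applies to a gene's mean over all arrays, and on the agonist arrays it read 147 and 33.9. Zw10, a kinetochore gene, had 536 and 485 against 921 and 759 (log2 0.70 ± 0.14, limma adjusted p = 0.166), but a second probe set lay at 0.06 ± 0.24. Tsc22d1, a leucine zipper gene, lay at 0.59 ± 0.13, but its other probe sets disagreed. Those tested lay at 0.56 ± 0.15, 0.62 ± 0.18, 0.09 ± 0.38, -0.19 ± 0.35 and -0.68 ± 0.24, the last with 326 and 276 against 223 and 146. Stk38, a kinase gene, lay at 0.43 ± 0.09, the pseudokinase gene Trib2 at 0.50 ± 0.12 and the glycogen-targeting subunit gene Ppp1r3f at 0.87 ± 0.21. Tmem71, 1810058I24Rik and Ssr3 lay at 0.48 ± 0.11, 0.50 ± 0.12 and 0.65 ± 0.16, with limma adjusted p from 0.204 to 0.298.

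The listed markers of other cells were mostly dim and did not pass in the main fit. The summed signal of 12 B cell markers was 8503 and 7622 in WT vehicle and 8218 and 8173 in KO vehicle, most of it from Ighm, the immunoglobulin mu chain gene, and of 8 tested 4 had negative values. The B cell receptor gene Cd79a lay between 23.1 and 77.7. Fcer2a, the CD23 gene, had 97.3 and 20.5 against 198 and 166 (log2 1.62 ± 0.46, limma adjusted p = 0.401), and Cd22, an inhibitory B cell receptor gene, 139 and 107 against 76.9 and 47.1 (log2 -0.85 ± 0.39, limma adjusted p = 0.707), so these 2 dim genes lay in opposite directions. Sums for 15 myeloid markers were 6944 and 6386 against 6042 and 5770, of which Ctss held 6457 and 5385 against 5346 and 4936, while Lyz2 lay between 42.1 and 123. The other 3 tested myeloid markers were dim and had positive values, Fcgr1 at 0.89 ± 0.44, Csf1r at 0.41 ± 0.41 and Ly86 at 0.32 ± 0.51. The median of the 4 tested was 0.37, with 1.15 within replicate 1 and -0.09 within replicate 2. Sums of 12 CD8 T and NK cell markers were 1332 and 1030 against 1343 and 1411, with Cd8b1 at 119 and 118 against 249 and 184. Dendritic, erythroid and stromal sums overlapped between the groups. No listed marker read exactly 0, and the part of these markers in the results was not tested. The antibody genes Igha and Jchain were not among the listed markers and are named below with the alternative analyses. Whether their signals came from other cells was not tested.

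Sex-linked genes and the listed neighbours of the deleted gene did not pass. The Y-linked Eif2s3y had 1484 and 1173 in WT vehicle and 1533 and 1339 in KO vehicle, and the dim Xist 92.4 and 91.1 against 146 and 116. Of 29 tested genes listed near the receptor gene on chromosome 10 0 passed, 14 had negative and 15 positive values, and the median was 0.015. Tnfaip3 and Gadd45b, at log2 -1.02 and -0.78, are on chromosome 10 as well but were not in this list. Whether their position had a part in these values was not tested.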

How the data were processed

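The values deposited for each sample are signal intensities of 1 array, not log-transformed. The arrays were processed with GCOS, per the submitters' processing notes; its version and summarization method are not stated in what was used here. Each array's mean without the highest and lowest 2% of probe sets was the same, and this scaling was kept. Probe sets for controls (64) were dropped. Of the others 34945 listed 1 gene symbol, 932 several and 9160 none; 34741 of the first matched a gene table of assembly GRCm38.p6 by Entrez identifier, used for current symbols. Each of 18193 genes was represented by its brightest probe set, analysed on a log2(signal + 16) scale that understates the changes of dim genes, and the lowest 40% by mean (signal below 71.2) were left out.

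All 6 arrays were fitted with limma 3.58.1 in R 4.3.3, with group, replicate number as a block and a mean-variance trend, leaving 2 residual degrees of freedom. p-values were adjusted over all 10916 genes. The script was tested on simulated data. With 2 arrays in each group, 0.333 is the smallest two-sided p of an exact permutation test. The labels number the replicates without saying what same-numbered samples share. Differences between replicates 1 and 2 correlated across groups at 0.229, 0.234 and 0.150, and poly-A control RNAs were 1.15 to 2.00 times brighter on replicate 1 in each group. The comparison, the block, the 28 lists (575 symbols), the promoter search and the alternatives were chosen with earlier results of these data known, and lists were described by counts and medians without a test. Named genes were those past the threshold, the genes next in order of p up to 10 in a direction, up to 4 members a list by smallest p, and 22 key genes. Other list members given as examples were chosen after their values were seen. Promoter windows were those of RefSeq, on GRCm38.p6. The deleted gene is not reported here, and the genotype was not checked by its transcript.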

Additional observations from a re-analysis of the deposited data

How the results depend on the processing

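Over 17 alternative analyses the 9 genes kept negative log2 fold changes, with the call lost in some: Pdcd1 passed in 16, Crem and Rgs2 in 15, Odc1 and Tnfaip3 in 14, Irak1 in 13, Cebpb in 12, and Tent5a and C730049O14Rik in 6. The number of genes lower was 3 without the replicate block, 2 with probe sets averaged and 0 without the mean-variance trend, and between 7 and 13 in the other 8 that keep all replicates. Leaving out 1 replicate at a time gave 5 to 26 genes lower and 0 to 2 higher. The genes then higher were Vegfb and Adam15 without WT vehicle replicate 1, Rpl37 without KO vehicle replicate 1, and Sox4 and Sppl3 without KO vehicle replicate 2. Genes then lower outside the lists included Igha and Jchain, without WT vehicle replicate 2 and again without KO vehicle replicate 2. They also included Erdr1 and Mid1 without KO vehicle replicate 1, and Malat1 and Rps27 without KO vehicle replicate 2. Of 117 tested genes named otherwise, 5 passed in some alternative by their brightest probe set (Gadd45b, Dusp1, Fosl2, Maf and Cxcr3, all lower), Tnfrsf9 passed by a dimmer one when each was tested separately, and 36 changed sign in at least 1 of them. No alternative reversed the sign of a called gene. The list medians of the cAMP, AP-1, co-receptor, NF-kB, Treg identity, T helper and naive CD4 genes kept their sign in all 17. None of the 17 left out replicate 1 of both groups together, so they cannot show a sign that rests on replicate 1. Within replicate 2 the medians of the Treg identity and co-receptor lists were 0.016 and 0.001. The list median of adenosine handling changed sign in 3. The number of arrays and dim signals limit what could be seen, as for Foxp3, Il10 and Gzmb.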

Other observations

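Probe sets that list no single gene were outside the gene comparison. Fitted together with the named ones (23711 probe sets with signals above the same limit), 0 of 591 that list several genes and 0 of 4359 that list none passed the limma threshold in KO vehicle against WT vehicle, in either direction.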
